A study of Mus musculus with 2 samples.

Results

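The genes followed here, 10 in number, code for receptors first known from natural killer (NK) cells. They are Klrc1, Klrc2, Klrd1, Klrk1, Klrb1c, Klrg1, Klra7, Klra8, Klre1 and Ncr1, and their rows were taken by gene symbol from both count matrices, which makes 10 of 32285 genes. All 10 symbols were found once in each library. Their RNA was described across T cell subsets, NK cells and both libraries of the series.

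NK cells weigh signals from activating and inhibitory receptors before they kill a target, and many of these receptors are lectin-like proteins coded in a single gene cluster. CD94 (Klrd1) pairs with NKG2A (Klrc1), which inhibits, or with NKG2C (Klrc2), which activates, and both pairs read the nonclassical MHC class I molecule Qa-1. T cells that have met antigen can take up several of the same receptors, so none of them belongs to NK cells alone.

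The cells came from subcutaneous tumors of MC38, a colon carcinoma line of C57BL/6 origin, in young adult female mice of that strain. One library was made from Lmo7+/+ hosts and 1 from Lmo7-/- hosts, in which the gene for the ubiquitin ligase Lmo7 is deleted in the whole animal while the implanted tumor cells keep it. Tumors were dissociated, red cells were lysed, and live cells were sorted with no gate on a lymphocyte marker. The number of mice behind a library is not given in the sources used here, and the 2 libraries were pooled for sequencing.

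Each genotype is represented by 1 library without replicates. No difference was therefore tested and no p-value is given. The values are counts of UMIs, tags that each mark one captured RNA molecule, summed over the cells of a subset and given as CPM, counts scaled to 1000000 UMIs of that subset. All intervals are 95% intervals, exact Poisson for a CPM and exact binomial for a share, and a log2 ratio takes its interval from how its counts divide between both sides. They cover counting error only and say nothing of the variation between mice. A log2 ratio between libraries is that of the library labelled Lmo7-/- over the library labelled Lmo7+/+.

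The Lmo7+/+ library held 16208 cells as deposited and the Lmo7-/- library 15163, of which 13542 and 11860 passed the filters, with a median of 4535.5 and 4304.5 UMIs per cell. Lymphocyte-like cells numbered 578 and 731, with a median of 2157.5 and 2208.0 UMIs. The libraries shared 279 cell barcodes, and 27 lymphocyte-like cells carried one of them. Lmo7 itself had 1414 and 922 counts among all deposited cells but only 5 and 2 in lymphocyte-like cells, and since the tumor cells carry the gene in both hosts, these counts check the genotype labels poorly.

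Lymphocytes were clustered without any Klr gene and without Ncr1, so that the receptor genes could not shape the subsets in which they are described. CD8 T-like cells numbered 344 and 511 and fell into 5 clusters named by leading genes, CD4 T-like cells numbered 21 and 29, regulatory T-like cells 62 and 75, and NK-like cells 77 and 53. The gamma delta T-like cells, at 10 and 2, were too few for a comparison. One CD8 cluster, led by Gzme and Gzmd, held 5 cells in the Lmo7+/+ library and 44 in the other, so CD8 totals were also taken without it. Another 24 and 19 lymphocytes carried macrophage RNA and 40 and 42 carried tumor or stromal RNA, and they were set aside, as were 90 and 125 droplets that mixed T cell and macrophage RNA.

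The cell labels were set beside markers. Tyrobp and the sum of Cd3d, Cd3e, Cd3g and Trac had served to name the NK-like cluster, so their values are no check of it. NK-like cells carried 13 of 14 NK cell markers in each library, but CD8 T-like cells also carried 13 and 12. The summed level of these markers, Tyrobp included, was 20610 and 16800 CPM in NK-like cells and 6639 and 6605 CPM in CD8 T-like cells. Tyrobp stood at 1356 and 1510 CPM in NK-like cells against 32.0 and 22.0 CPM in CD8 T-like cells. In NK-like cells Eomes stood at 292 and 197 CPM, and S1pr5 at 0. A UMI of Cd3d, Cd3e, Cd3g or Trac was seen in 15.6% and 11.3% of NK-like cells and in 98.8% of CD8 T-like cells in each library. Macrophage markers were low in both, at a summed 219 and 183 CPM in CD8 T-like cells and 310 and 421 CPM in NK-like cells, and values without the cells that held macrophage UMIs are given where they change a result.

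All the genes but Ncr1 lie on mouse chromosome 6 (GENCODE M21 on GRCm38). Klrd1 and Klre1 are read from the plus strand and the other 7 from the minus strand. Klre1 (ENSMUSG00000050241) spans 129577905 to 129585827, Klrd1 (ENSMUSG00000030165) 129591782 to 129598775, Klrk1 (ENSMUSG00000030149) 129610323 to 129623864, Klrc2 (ENSMUSG00000052736) 129647496 to 129660689 and Klrc1 (ENSMUSG00000030167) 129666015 to 129678973. These 5 genes are close neighbours. Klra8 (ENSMUSG00000089727) spans 130115226 to 130129898, Klra7 (ENSMUSG00000067599) 130218605 to 130233322, Klrb1c (ENSMUSG00000030325) 128778485 to 128789215 and the more distant Klrg1 (ENSMUSG00000030114) 122270596 to 122282882. Ncr1 (ENSMUSG00000062524) lies on the plus strand of chromosome 7 from 4337724 to 4345164.

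Some of these genes are near copies of others, which limits how surely a read is assigned. Of the 50-base stretches of the Klrc1 transcripts, 38.6% also occur in another gene, mostly Klrc2, and the shares are 29.4% for Klrc2, 33.1% for Klra8, 17.0% for Klrb1c and 12.3% for Klra7. Klrd1, Klrk1, Klrg1, Klre1 and Ncr1 share none. Klrb1c also overlaps the gene model Gm44511 on the same strand over 8931 bases. Counts of Klrc1, Klrc2, Klra7, Klra8 and Klrb1c are therefore less certain than those of the rest.

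The promoter windows of 5 members are printed because the genes differ in where their RNA was found, Klrc1 and Klrk1 in CD8 T-like and NK-like cells, Ncr1 and Klra8 in NK-like cells and Klra7 mostly there. Each runs 5′ to 3′ over 300 bases, of which the last 50 follow the start of the RefSeq gene (GRCm38.p6). Capitals mark the RUNX core TGTGGT or, on the other strand, ACCACA.
Klrc1, chr6:129678924-129679223, minus strand: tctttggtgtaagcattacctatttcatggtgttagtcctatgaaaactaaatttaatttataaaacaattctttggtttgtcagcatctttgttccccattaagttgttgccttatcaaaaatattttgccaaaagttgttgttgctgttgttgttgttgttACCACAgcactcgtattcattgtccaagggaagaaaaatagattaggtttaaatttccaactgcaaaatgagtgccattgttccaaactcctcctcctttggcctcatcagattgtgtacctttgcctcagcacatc
Klrk1, chr6:129623815-129624114, minus strand: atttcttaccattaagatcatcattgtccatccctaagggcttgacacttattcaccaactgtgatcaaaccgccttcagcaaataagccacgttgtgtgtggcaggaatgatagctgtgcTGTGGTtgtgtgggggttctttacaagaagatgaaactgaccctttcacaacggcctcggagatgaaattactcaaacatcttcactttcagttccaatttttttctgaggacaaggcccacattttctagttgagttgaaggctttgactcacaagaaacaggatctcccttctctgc
Ncr1, chr7:4337474-4337773, plus strand: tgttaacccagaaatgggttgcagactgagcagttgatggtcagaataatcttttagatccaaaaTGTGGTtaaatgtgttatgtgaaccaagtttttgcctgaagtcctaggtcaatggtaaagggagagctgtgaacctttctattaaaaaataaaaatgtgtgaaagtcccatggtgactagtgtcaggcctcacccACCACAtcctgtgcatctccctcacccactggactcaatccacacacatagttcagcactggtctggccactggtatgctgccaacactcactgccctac
Klra7, chr6:130233273-130233572, minus strand: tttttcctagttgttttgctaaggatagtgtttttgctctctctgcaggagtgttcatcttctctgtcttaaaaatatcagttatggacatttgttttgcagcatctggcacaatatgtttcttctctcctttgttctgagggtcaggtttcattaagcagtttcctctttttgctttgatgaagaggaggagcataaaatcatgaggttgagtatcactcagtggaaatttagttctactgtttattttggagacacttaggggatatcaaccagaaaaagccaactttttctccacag
Klra8, chr6:130129849-130130148, minus strand: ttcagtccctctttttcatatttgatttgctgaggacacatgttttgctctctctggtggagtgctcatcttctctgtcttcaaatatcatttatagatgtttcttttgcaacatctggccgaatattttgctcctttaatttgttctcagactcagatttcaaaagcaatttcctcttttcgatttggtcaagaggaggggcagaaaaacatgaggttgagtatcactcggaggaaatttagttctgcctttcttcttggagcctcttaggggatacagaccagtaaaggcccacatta

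A window was found for 8 of the 10 genes, not for Klrd1 or Klrg1. The RUNX core stood in 6 of the 8 on either strand, against 16.8% of 32851 windows of the same length, and the T-box core GGTGTG, searched the same way, stood in 0 of the 8, against 19.0% of all windows. The exceptions for the RUNX core were Klra7 and Klra8, whose windows carry neither. Those 2 windows were alike, with 75.8% identical bases over an alignment of 314 columns, while the windows of Klrc1 and Klrc2 had 49.7%. A match of letters is a description and not a binding site.

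Most RNA of these genes lay in lymphocytes, apart from Klrk1. Of all their counts in kept cells, lymphocyte-like cells, which are 1309 of 25402 cells, held 93.8% for Klra7, 96.0% for Klra8, 95.8% for Ncr1, 83.7% for Klrc1, 82.7% for Klre1, 79.1% for Klrc2, 74.4% for Klrb1c, 73.1% for Klrg1 and 69.6% for Klrd1. For Klrk1 the share was 24.1%. Klrk1 was also the gene with the most counts, 2790 in kept cells, against 71 for Ncr1.

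**Figure D1:**
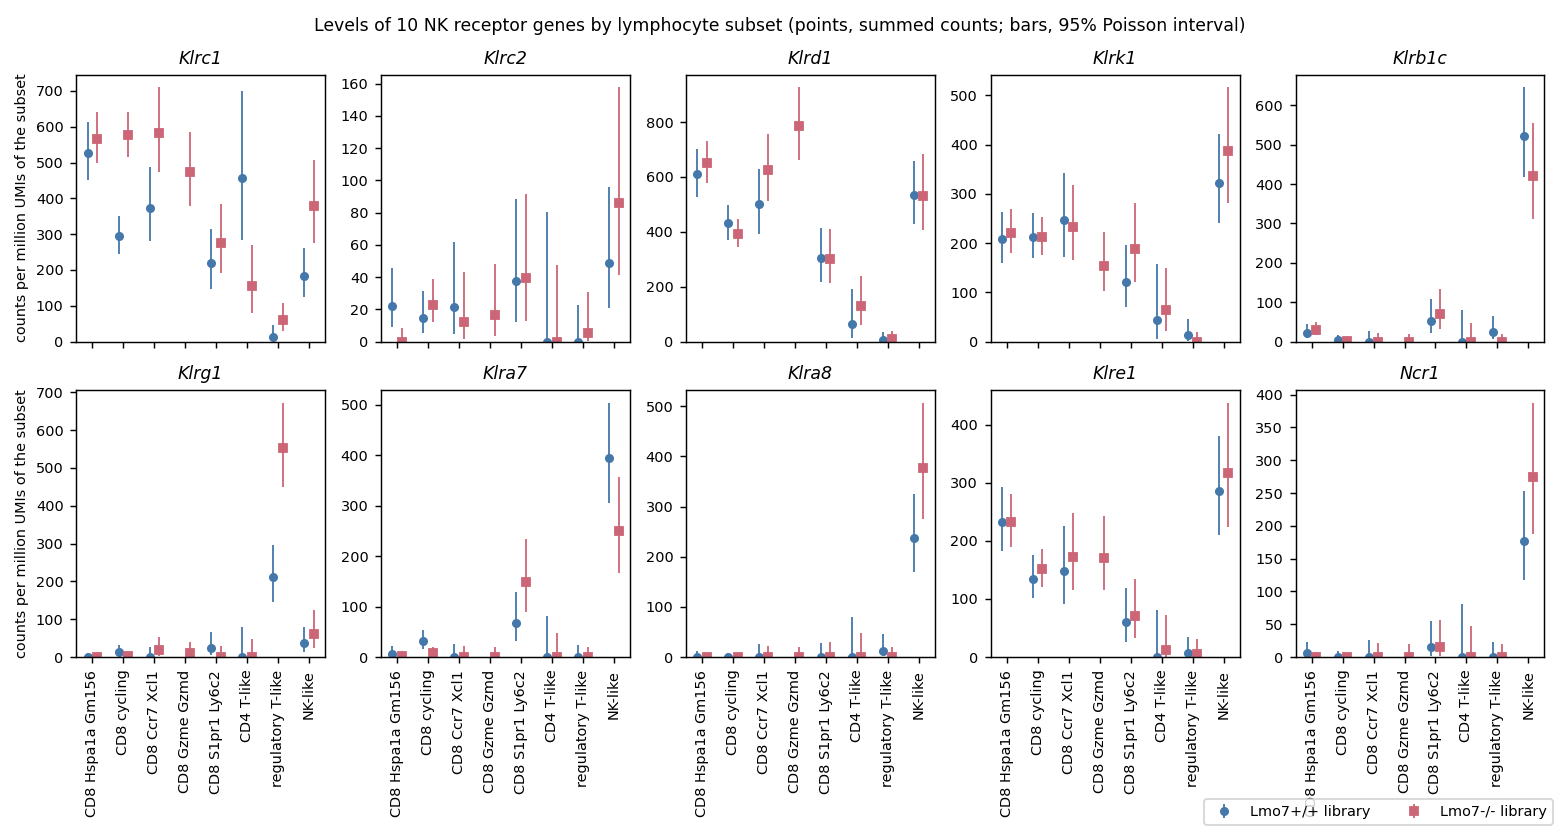
CPM of each gene (y axis, counts per 1000000 UMIs of the subset, each panel with its own scale from 0) in 8 lymphocyte subsets (x axis) of the Lmo7+/+ library (circles) and the Lmo7-/- library (squares), with 95% Poisson intervals. Points from fewer than 10 cells and the gamma delta T-like cells are left out. Klrc1, Klrd1, Klrk1 and Klre1 span the CD8 clusters and NK-like cells, Klrb1c, Klra8 and Ncr1 are low or at 0 outside NK-like cells, Klra7 is also seen in the CD8 S1pr1 Ly6c2 cluster, and Klrg1 is highest in regulatory T-like cells.

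Klrc1, the inhibitory NKG2A chain, was seen in both kinds of cell and was higher in CD8 T-like cells as a whole than in NK-like cells. Its level in CD8 T-like cells was 369 CPM (381 counts) in the Lmo7+/+ and 536 CPM (803 counts) in the Lmo7-/- library. NK-like cells had less, 183 CPM from 30 counts and 378 CPM from 44 counts. Within a library the log2 ratio of NK-like over CD8 T-like cells was -1.02 (-1.61 to -0.48) and -0.51 (-0.98 to -0.07), so the lower level in NK-like cells was outside counting error in each library. With mixed droplets that held Cd8a or Cd8b1 UMIs added, the second ratio was -0.19 (-0.66 to 0.25).

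Among the CD8 clusters Klrc1 was highest in the cluster led by Hspa1a and Gm156 in the Lmo7+/+ library, at 528 CPM, and lowest in the cluster led by S1pr1 and Ly6c2, genes of recirculating T cells, at 219 CPM. In the Lmo7-/- library 4 clusters lay between 473 and 583 CPM, with neighbours in that order within counting error, and the S1pr1 Ly6c2 cluster was again lowest at 276 CPM. Over the Hspa1a Gm156 cluster, the S1pr1 Ly6c2 cluster had a log2 ratio of -1.27 (-1.89 to -0.69) in one library and -1.04 (-1.59 to -0.53) in the other. CD4 T-like cells had 458 CPM from 21 counts in 10 cells in the Lmo7+/+ library and 155 CPM from 12 counts in 5 cells in the other. Regulatory T-like cells had 2 and 11 counts, 12.4 and 60.3 CPM.

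Klrc1 RNA was seen in 56.7% of CD8 T-like cells in the Lmo7+/+ and 65.6% in the Lmo7-/- library, at median depths of 2282.5 and 2281.0 UMIs. Thinned to 1500 UMIs per cell, which left out 72 and 127 shallower cells, the shares were 41.1% (35.2 to 47.2) and 51.7% (46.6 to 56.8), a difference of 10.6 percentage points (2.89 to 18.2). Outside the cycling cluster the difference was 7.69 points (-1.63 to 16.8). Macrophage-like cells, at median depths of 5200 and 4348 UMIs, had thinned shares of 0.00974% and 0.00414%, with unthinned shares of 0.0325% and 0.0267% and 194 and 366 cells left out. The share in CD8 T-like cells is thus far above that in a cell type that should lack the gene.

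Klrd1, the CD94 partner chain, stood at nearly the same level in both kinds of cell. CD8 T-like cells had 488 CPM (503 counts) in the Lmo7+/+ and 535 CPM (801 counts) in the Lmo7-/- library, and NK-like cells had 535 CPM (88 counts) and 532 CPM (62 counts). The log2 ratio of NK-like over CD8 T-like cells was 0.13 (-0.21 to 0.46) and -0.01 (-0.41 to 0.37), so each interval includes 0. In the Lmo7-/- library the Gzme Gzmd cluster was highest at 787 CPM, within counting error of the Hspa1a Gm156 cluster at 650.1 CPM. Regulatory T-like cells had 1 and 2 counts, and CD4 T-like cells 3 and 10.

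The share of CD8 T-like cells with a UMI of the partner Klrd1 was compared between cells with and without a Klrc1 UMI. After thinning, 55.3% (45.6 to 64.7) of cells with and 43.9% (36.1 to 52.0) of cells without a Klrc1 UMI had a Klrd1 UMI in the Lmo7+/+ library, and 53.9% (46.7 to 60.9) and 48.1% (40.7 to 55.5) in the other. The intervals overlap in each library, and the gap of 5.79 percentage points in the Lmo7-/- library was 1.05 with a stricter cell filter and 1.72 in cycling cells. Before thinning the gap was wider, 73.8% against 44.3% and 72.2% against 51.1%, in cells of unequal depth. For Pdcd1, the checkpoint receptor PD-1, the thinned shares were 51.2% with and 42.5% without a Klrc1 UMI in the Lmo7+/+ library, and 59.2% and 51.5% in the Lmo7-/- library, again with overlapping intervals. Pdcd1 itself stood at 501 and 634 CPM in CD8 T-like cells and had 0 counts in NK-like cells of both libraries.

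Klrc2, the activating NKG2C chain, was scarce. It had 21 and 23 counts in CD8 T-like cells, 20.4 and 15.4 CPM, and 8 and 10 counts in NK-like cells, 48.7 and 85.8 CPM. The log2 ratio of NK-like over CD8 T-like cells was 1.26 (-0.13 to 2.49) in the Lmo7+/+ and 2.48 (1.25 to 3.61) in the Lmo7-/- library, opposite in sign to that of Klrc1 in each. Since part of the transcript is shared with Klrc1, a few of these counts could be misplaced.

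Klre1 codes for a lectin-like receptor that pairs with the products of Klri1 and Klri2. Like Klrd1 it was low in CD4 T-like and regulatory T-like cells, but unlike Klrd1 it was higher in NK-like than in CD8 T-like cells. CD8 T-like cells had 157 and 173 CPM and NK-like cells 286 and 318 CPM, with log2 ratios of 0.86 (0.36 to 1.34) and 0.88 (0.34 to 1.38). The first was 0.63 (-0.04 to 1.25) with a stricter cell filter, and the second 0.34 (-0.36 to 0.97) without the cells that held macrophage UMIs. The Hspa1a Gm156 cluster was the highest CD8 cluster in both libraries, at 233 and 232 CPM, and the S1pr1 Ly6c2 cluster the lowest, at 60.5 and 70.8 CPM. Of the partner genes, Klri2 had 201 and 197 CPM in NK-like cells and 63.0 and 86.8 CPM in CD8 T-like cells, while Klri1 had 1 count in CD8 T-like cells and 0 in NK-like cells.

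Klrk1 codes for NKG2D, an activating receptor for stress-induced ligands that signals through the adaptor DAP10 (Hcst). NK-like cells had 322 CPM (53 counts) in the Lmo7+/+ and 386 CPM (45 counts) in the Lmo7-/- library, and CD8 T-like cells had 202 CPM (208 counts) and 208 CPM (311 counts). The log2 ratio of NK-like over CD8 T-like cells was 0.68 (0.21 to 1.12) and 0.89 (0.41 to 1.35), above 0 in each library but under 2-fold. With a stricter cell filter the first was 0.57 (-0.02 to 1.11). Across the CD8 clusters with at least 10 cells the level ran from 121 to 246 CPM in one library and from 154 to 232 CPM in the other, with all neighbours in the order within counting error. Regulatory T-like cells had 2 and 0 counts.

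The adaptor Hcst stood at 256 and 283 CPM in NK-like cells and at 234 and 219 CPM in CD8 T-like cells. Among CD8 T-like cells thinned to 1500 UMIs, Hcst was seen in 29.1% with and 30.3% without a Klrk1 UMI in the Lmo7+/+ library, and in 27.4% and 28.0% in the other. The intervals overlap in each library, and an excess of the adaptor in cells with the receptor was not detectable at this depth.

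Klrk1 was also found in dendritic-like, monocyte-like and macrophage-like cells. Dendritic-like cells had 153 and 140 CPM, monocyte-like cells 44.8 and 64.3 CPM and macrophage-like cells 19.7 and 31.1 CPM, against 0.434 and 0.721 CPM in Ptprc-low cells, which hold the tumor cells. Thinned to 1500 UMIs, 19.4% and 19.1% of dendritic-like cells had a Klrk1 UMI (39.6% and 41.8% before), 6.48% and 9.01% of monocyte-like cells (16.4% and 20.8%) and 2.56% and 4.43% of macrophage-like cells (8.97% and 12.7%), at median depths between 3591 and 5200 UMIs. Ptprc-low cells had 0.0662% and 0.164% (0.341% and 0.554% before), at 4992 and 5365.5 UMIs. At this equal depth the 3 myeloid shares did not overlap in their intervals within a library.

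Dendritic-like cells also carried Klrd1, at 143 and 114 CPM, in 17.8% and 14.5% of thinned cells (31.0% and 28.4% before), while Klrc1 had 10 and 11 counts in them and Ncr1 0. In the dendritic-like cluster led by Plet1 and Itgae Klrd1 stood at 151 and 124 CPM. In macrophage-like cells Klrd1 had 3 and 9 counts beside the 345 and 571 of Klrk1. The log2 ratio of Klrk1 between the libraries was 0.66 (0.46 to 0.85) in macrophage-like cells and 0.52 (0.28 to 0.77) in monocyte-like cells, both outside counting error.

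**Figure D2:**
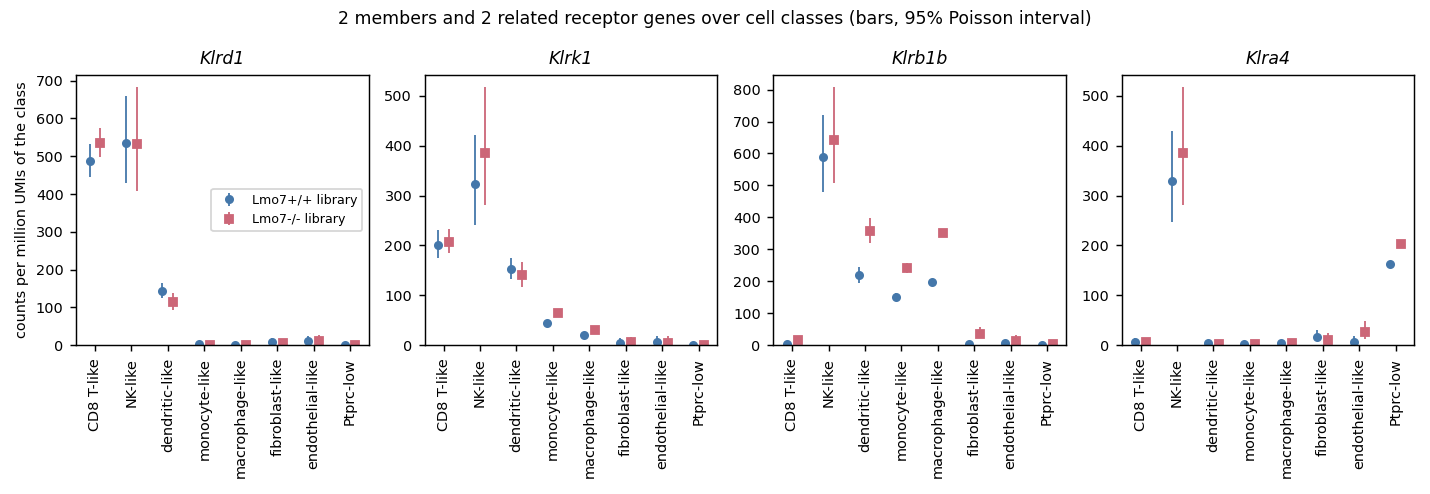
CPM (y axis, counts per 1000000 UMIs of the class, from 0) of Klrd1, Klrk1 and 2 related receptor genes, Klrb1b and Klra4, in 8 cell classes (x axis) of the Lmo7+/+ library (circles) and the Lmo7-/- library (squares), with 95% Poisson intervals. Klrd1 reaches dendritic-like cells, Klrk1 and Klrb1b also monocyte-like and macrophage-like cells, and Klra4 is seen in NK-like and Ptprc-low cells.

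Klrb1c, Ncr1, Klra7 and Klra8 were far higher in NK-like cells than in CD8 T-like cells as a whole. Klrb1c, which codes for the NK1.1 antigen of C57BL/6 mice, had 523 CPM (86 counts) and 421 CPM (49 counts) in NK-like cells and 15.5 CPM (16 counts) and 15.4 CPM (23 counts) in CD8 T-like cells. The log2 ratio of NK-like over CD8 T-like cells was 5.08 (4.29 to 5.95) in the Lmo7+/+ and 4.77 (4.03 to 5.56) in the Lmo7-/- library. Of the few CD8 counts, 7 and 9 lay in the S1pr1 Ly6c2 cluster, at 53.0 and 70.8 CPM, 7 and 13 in the Hspa1a Gm156 cluster, at 22.0 and 29.2 CPM, and 2 and 1 in the cycling cluster.

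Ncr1, the activating receptor NKp46, is the most NK-restricted of these genes by textbook use. It had 29 and 32 counts in NK-like cells, 176 and 275 CPM, and 4 and 2 counts in CD8 T-like cells. The log2 ratios were 5.51 (4.00 to 7.48) and 7.68 (5.71 to 10.79). At this depth 28.6% and 35.8% of NK-like cells had an Ncr1 UMI, and 25% and 28.2% after thinning, which left out 29 and 19 cells at median depths of 1653 and 1854 UMIs, against 0.00739% and 0% of macrophage-like cells.

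Klra7 and Klra8 belong to the Ly49 family, in which Klra7 (Ly49G) inhibits and Klra8 (Ly49H) activates through DAP12 (Tyrobp). In NK-like cells Klra8 had 39 counts (237 CPM) in the Lmo7+/+ and 44 counts (378 CPM) in the Lmo7-/- library, and 0 counts in all CD8 T-like cells. Set against 3 counts over the CD8 T-like cells of a library, the level in NK-like cells was 81.6-fold and 188-fold higher. On the log2 scale these are 6.35 and 7.56, and the lower limits of the intervals were 5.98 and 7.20. Its UMIs were uneven, since 16 of 77 and 14 of 53 NK-like cells carried them and a single cell of the Lmo7-/- library held 13.

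Klra7 was not limited to NK-like cells. It had 65 and 29 counts there, 395 and 249 CPM, and 25 counts in CD8 T-like cells of each library, 24.2 and 16.7 CPM, with log2 ratios of 4.03 (3.34 to 4.76) and 3.90 (3.07 to 4.73). Among CD8 clusters the S1pr1 Ly6c2 cluster held 9 counts from 7 cells and 19 counts from 6 cells, 68.1 and 149.5 CPM, against 2 and 1 counts in the Hspa1a Gm156 cluster. In the Lmo7-/- library this level was within counting error of that in NK-like cells. In 7 of the 7 cells and 5 of the 6 cells a UMI of Cd3d, Cd3e, Cd3g or Trac was also seen. In the cycling cluster of the Lmo7+/+ library the 13 counts came from 2 cells, and in that of the Lmo7-/- library the 5 counts came from 1.

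**Figure D3:**
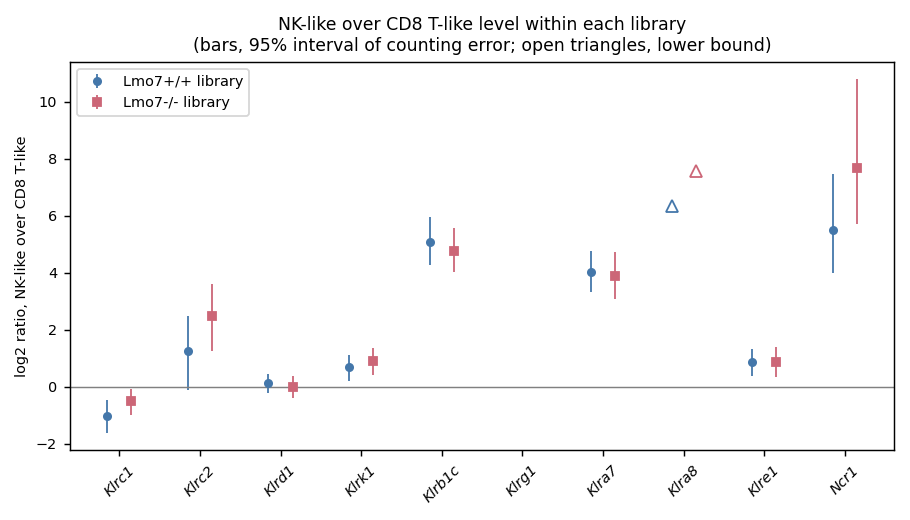
Log2 ratio of the level in NK-like over CD8 T-like cells (y axis) for each gene with at least 20 counts (x axis), within the Lmo7+/+ library (circles) and the Lmo7-/- library (squares), with 95% intervals of counting error and lower bounds as open triangles. Klrb1c, Klra7, Klra8 and Ncr1 stand above 3.8 in both libraries, Klrd1 is near 0 and Klrc1 is below 0.

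Counted over the list, 9 of the 10 genes had at least 20 counts in the comparison of NK-like with CD8 T-like cells, and 5 of them were more than 2-fold higher in NK-like cells in each library, namely Klrc2, Klrb1c, Klra7, Klra8 and Ncr1. Of all genes tested in the same way 6.81% passed 2-fold higher in the Lmo7+/+ and 9.20% in the Lmo7-/- library. The median log2 ratio of the 9 genes was 1.26 and 2.48, against -0.13 and -0.02 over all genes tested. The summed level of all 10 genes, Klrg1 included, was higher in NK-like cells by 1.09 (0.93 to 1.24) and 1.03 (0.87 to 1.19) on the log2 scale. Klrc1 was lower in NK-like cells, with log2 ratios of -1.02 in the Lmo7+/+ and -0.51 in the Lmo7-/- library. The minimum of 20 counts was reached through NK-like cells alone by Klra8 and Ncr1 in each library and by Klrb1c in the Lmo7+/+ library. These counts are therefore a description.

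Among the lymphocyte subsets Klrg1 had its highest level in regulatory T-like cells, although the gene was not used to form that cluster. It codes for an inhibitory receptor for cadherins that marks terminal effector T cells and mature NK cells, and also effector regulatory T cells. Regulatory T-like cells had 211 CPM of Klrg1 (34 counts) in the Lmo7+/+ and 554 CPM (101 counts) in the Lmo7-/- library. NK-like cells had 36.5 and 60.1 CPM from 6 and 7 counts and CD8 T-like cells 9.70 and 4.68 CPM from 10 and 7. Foxp3 stood at 715 and 751 CPM in regulatory T-like cells, but it had served to name them, so its level is no check of the name. The log2 ratio of regulatory T-like over CD8 T-like cells was 4.45 (3.40 to 5.63) and 6.89 (5.79 to 8.24). CD4 T-like cells had 0 counts of Klrg1 in both libraries. Outside lymphocytes, the far more numerous Ptprc-low cells held 31 and 30 counts of Klrg1, at 0.498 and 0.676 CPM.

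The other genes were low in regulatory T-like cells. Of 8 genes with at least 20 counts in that comparison, 4 in the Lmo7+/+ and 5 in the Lmo7-/- library were more than 2-fold lower than in CD8 T-like cells, where 10.8% and 11.1% of all genes were. They were Klrc1, Klrd1, Klrk1 and Klre1 in both, and Klrc2 with 1 count against 23 in the Lmo7-/- library. The log2 ratio of Klrc2 there was -1.49 (-6.85 to 1.14), an interval that spans both signs. Klrg1 was higher than in CD8 T-like cells, with log2 ratios of 4.45 in the Lmo7+/+ and 6.89 in the Lmo7-/- library. The genes counted as lower reached the minimum of 20 counts through CD8 T-like cells alone. Klrg1 reached it through regulatory T-like cells alone. The tally of lower genes and the entry of Klrg1 are therefore partly set by that minimum and are a description.

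Between the libraries, the level of Klrg1 in regulatory T-like cells differed by a log2 ratio of 1.39 (0.82 to 1.99), past 2-fold, where 7.17% of all genes tested passed in either direction. It was the only member with 20 counts in that comparison. The counts came from 13 of 62 cells in the Lmo7+/+ library, with at most 12 UMIs in a cell, and from 35 of 75 cells in the Lmo7-/- library, with at most 16. After thinning the shares were 13.6% (4.65 to 28.6) and 39.5% (25.1 to 55.3) of the 38 and 44 cells left, against 0.00481% and 0% of macrophage-like cells, with 21.0% and 46.7% before thinning and 24 and 31 cells left out, at median depths of 1672.5 and 1544.0 UMIs. The difference was 25.9 percentage points (6.61 to 42.5). With a stricter cell filter it was 16.6 points (-8.03 to 38.3), and the log2 ratio was 0.87 (0.22 to 1.54), no longer past 2-fold. The number of mice behind these 137 cells is not known, so mouse and genotype cannot be told apart.

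Over all CD8 T-like cells, Klrc1 was the only member whose interval for the difference between the libraries left out 0. Its log2 ratio was 0.54 (0.36 to 0.72), a factor of 1.45, and 0.56 without the Gzme Gzmd cluster or without shared barcodes. None of the 7 members with at least 20 counts passed 2-fold, where 3.64% of all genes did, and their median was 0.04 against -0.06 over all genes. For Klrd1 the ratio was 0.13 (-0.03 to 0.30), for Klrk1 0.04 (-0.21 to 0.30), for Klre1 0.14 (-0.15 to 0.43), for Klrb1c -0.01, for Klrc2 -0.41 (-1.32 to 0.52) and for Klra7 -0.54 (-1.40 to 0.32), and each of these intervals includes 0. The summed level of all members gave 0.22 (0.13 to 0.32). Klrc1 itself is part of this sum, with 803 of the 2254 counts in the Lmo7-/- and 381 of the 1330 in the Lmo7+/+ library.

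The difference in Klrc1 was larger in cycling than in other CD8 T-like cells. Cycling cells, 93 and 124 in number, had 294 CPM (122 counts) in the Lmo7+/+ and 577 CPM (332 counts) in the Lmo7-/- library, a log2 ratio of 0.97 (0.67 to 1.29). In CD8 T-like cells outside the cycling cluster the levels were 420 and 511 CPM, a ratio of 0.28 (0.06 to 0.51), and the 2 intervals do not overlap. In these cells outside the cycling cluster Klrd1 had much the same ratio, 0.25 (0.05 to 0.45), from 526 and 624 CPM. For Klrc1 the ratio was 0.10 (-0.19 to 0.39) in the Hspa1a Gm156 cluster and 0.64 (0.15 to 1.15) in the Ccr7 Xcl1 cluster. Within the Lmo7+/+ library cycling cells had less Klrc1 than the others, by a log2 ratio of -0.52 (-0.84 to -0.20), whereas in the Lmo7-/- library the ratio was 0.17 (-0.03 to 0.38). In cycling cells Klrd1 (-0.13), Klrk1 (0.00) and Klre1 (0.17) had intervals that include 0. Thinned to 1500 UMIs, which left out 7 and 9 cells, 37.4% (27.2 to 48.5) and 54.6% (45.1 to 63.9) of cycling cells had a Klrc1 UMI, against 65.6% and 79.0% before, at median depths of 3634 and 4191 UMIs.

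NK-like cells gave fewer counts and wider intervals. Klrc1 had a log2 ratio of 1.05 (0.35 to 1.77) and was the only 1 of 8 members past 2-fold, where 7.88% of all genes were, and a single cell of the Lmo7-/- library held 9 of its 44 UMIs. Without the cells that held macrophage UMIs it was 0.83 (0.07 to 1.60), and with a more lenient cell filter 0.56 (-0.17 to 1.29), both no longer past 2-fold. The share of NK-like cells with a Klrc1 UMI was 29.9% and 34.0%, and after thinning 26.8% (15.1 to 41.6) and 30.5% (16.0 to 48.6), with intervals that overlap. Klra7 was lower in the Lmo7-/- library, at -0.67 (-1.35 to -0.02), and the related Klra8 higher, at 0.67 (0.02 to 1.33), with bounds close to 0 on both. Without marked doublets the ratio of Klra7 was -0.58 (-1.26 to 0.07), and without shared barcodes the interval of Klra8 was -0.04 to 1.28, so neither held under every setting. Ncr1 had 0.64 (-0.13 to 1.42), Klrk1 0.26 (-0.35 to 0.86), Klre1 0.15 (-0.51 to 0.80), Klrd1 -0.01 (-0.50 to 0.48) and Klrb1c -0.31 (-0.85 to 0.21). The summed level of all members had a ratio of 0.17 (-0.04 to 0.37), with an interval that includes 0.

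In CD4 T-like cells the ratio of Klrc1 went the other way, at -1.57 (-2.72 to -0.48), but it rests on 10 and 5 cells.

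**Figure D4:**
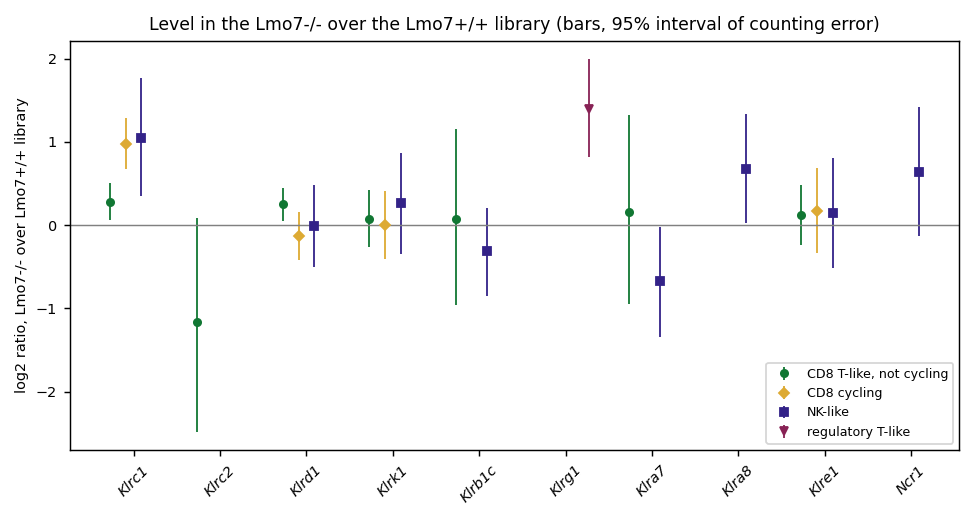
Log2 ratio of the Lmo7-/- over the Lmo7+/+ library (y axis) for genes (x axis) with at least 20 counts, in CD8 T-like cells outside the cycling cluster (circles), CD8 cycling (diamonds), NK-like (squares) and regulatory T-like cells (triangles), with 95% intervals of counting error. Klrc1 in cycling CD8 and NK-like cells and Klrg1 in regulatory T-like cells stand highest, and most other intervals cross 0.

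Single NK-like cells carried more kinds of these receptors than single CD8 T-like cells. In 1 draw of 1500 UMIs per cell, 95.8% of 48 NK-like cells in the Lmo7+/+ and 100% of 34 in the Lmo7-/- library had a UMI of at least 1 member, and 56.2% and 52.9% of at least 3, up to 6 members in a cell. Among CD8 T-like cells 76.5% and 87.2% had at least 1 and 19.1% and 14.8% at least 3, up to 4. Regulatory T-like cells had at least 1 in 15.8% and 36.4%, macrophage-like cells in 2.39% and 4.89%, chiefly Klrk1, and Ptprc-low cells in 0.258% and 0.360%.

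The likeness of each gene to others was read from the Pearson correlation of log2(CPM + 10) over 16 points, the lymphocyte subsets with at least 10 cells in each library, which share cells of a library and its depth. Klrd1 and Klre1 were alike (r = 0.91), as were Klrb1c and Klra7 (0.90) and Klrc1 and Klrd1 (0.89), while Klrk1 and Klrg1 ran opposite (-0.60). Among 5473 other genes the closest to Klrc1 were Ifitm1 (0.92), Xdh (0.92) and Fasl (0.91), the last a death ligand of killer cells. Closest to Klrb1c were Gzma (0.95), Klra4 (0.93) and Itgax (0.93), and to Klra7 Eomes (0.93), Nrarp (0.92) and Car2 (0.90). Klrg1 was most like Lrrc32 (0.86), which codes for the GARP protein of regulatory T cells, and Gng5 (0.80) was also among its closest. Klre1 was most like Dnajb4 (0.94), Gnptab (0.93) and Ugcg (0.92). For Klrd1 these were Rpl5, Bend4 and Rpl4 (0.92 to 0.94) and for Klrk1 Efhd2, Rps18 and Rps7 (0.89 to 0.92), in which ribosomal protein genes are prominent.

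Of the 14 other lectin-like receptor genes of the NK gene complex found in the matrices, 8 had enough counts in the Lmo7+/+ library and all 8 were more than 2-fold higher in NK-like than in CD8 T-like cells, and in the Lmo7-/- library 4 of 5 were, where 6.81% and 9.20% of all genes tested were. Some of them reached 20 counts through NK-like cells, as Klra4 did with 54 and 45 counts there against 7 and 10 in CD8 T-like cells, so the count is partly set by that minimum. Klrb1b stood at 590 and 644 CPM in NK-like cells and 4.85 and 14.7 CPM in CD8 T-like cells, and Klra9 at 207 and 68.7 CPM in NK-like cells. Klra5 was the gene that did not pass in the Lmo7-/- library, with a log2 ratio of -0.64 (-6.01 to 2.01) from 1 count against 20. Of the adaptors and signal transducers, 4 of 13 and 3 of 12 were more than 2-fold higher in NK-like cells and 3 and 2 lower, with medians of -0.10 and 0.16. Other NK cell receptors had medians of -0.04 and 0.27 over 10 genes in each library, near the -0.13 and -0.02 of all genes. Between the libraries, none of 13 adaptors and none of 10 other NK cell receptors passed 2-fold in CD8 T-like cells, while Klrb1b, with 22 counts against 5, was the 1 of 4 lectin-like genes that did, at a log2 ratio of 1.60 (0.16 to 3.36).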

How the data were processed

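Single cells of tumors from 1 Lmo7+/+ and 1 Lmo7-/- library were measured by 10x Genomics RNA sequencing. The authors deposited UMI counts per gene and cell barcode, and the submitters' processing notes name Cell Ranger 2.1.1 and mm10. The barcodes have 24 bases, and the header of the matrices names a later software version. Which version made the counts is therefore uncertain. The thresholds of the authors' own clustering are not given in the sources used here.

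The filters asked for 500 genes and 1000 UMIs per cell and a mitochondrial share of UMIs no higher than 15%. Both libraries were clustered together with scanpy 1.11.5 and igraph 0.11.9 (2000 variable genes, 30 principal components, 20 neighbours, resolution 0.5), and lymphocyte-like cells again at resolution 1.5 without 27 genes, the Klr genes and Ncr1. Scrublet marked 382 and 281 cells as doublets, 2.82% and 2.37%, which were kept. Counts were summed per subset and library. Ratios were read for genes with at least 20 counts in the comparison, and no model was fitted across genes. Where 1 side had 0 counts, 3 counts over that group were used as a bound. Shares were computed as the expected share after thinning each cell to 1500 UMIs. The genes named are the members, the genes and markers of lists written into the design, and, for each member with at least 100 counts in lymphocytes, the 3 other genes with the highest Pearson r over the lymphocyte subsets, of which 1 is not reported here. The scripts were tested on simulated data, and ran under Python 3.11.15, scipy 1.17.1 and R 4.3.3 with edgeR 4.0.16, used for TMM library sizes in an alternative. Gene positions are from GENCODE M21, which held 32158 of the 32285 gene identifiers.

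The members and gene lists were chosen with earlier results of these data known, and the thresholds for naming clusters and the resolution for lymphocytes were set after the data were seen. Alternatives covered the cell filters, doublets, clustering, library scaling, mixed droplets and shared barcodes.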

Additional observations from a re-analysis of the deposited data

How the results depend on the processing

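Under 19 alternatives, 3 of them chosen after seeing the data, 743 of 779 values stayed within the counting interval of the reported value (counts and percents within 1.5 times), 36 moved further, and 0 values whose interval left out 0 changed sign. The summed log2 ratio between the libraries in CD8 T-like cells was 0.33 with mixed droplets added. The summed ratio of NK-like over CD8 T-like cells was 1.27 against cycling CD8 T-like cells only and 1.51 with mixed droplets added in the Lmo7+/+ library, and 1.35 with mixed droplets and 0.85 with TMM library sizes in the other. The number of members past 2-fold between the libraries was 1 in CD8 T-like cells with the strict filter and 1 in those not cycling, and in NK-like cells it was 2 with the lenient filter and 0 when Klr genes and Ncr1 were used for clustering, when subsets were set from the UMIs of each cell, without cells holding macrophage UMIs, without shared barcodes and with TMM library sizes. The percent of all genes past 2-fold was 1.06 in CD8 T-like and 1.91 in NK-like cells at a minimum of 50 counts. The cause of these shifts was not tested. Between the libraries the log2 ratio of Klrc1 ranged from 0.28 to 0.97 in CD8 T-like and from 0.56 to 1.25 in NK-like cells, and Klrg1 in regulatory T-like cells from 0.87 to 1.62. The Klra7 log2 ratio in NK-like cells was -0.14 (-0.79 to 0.48) when subsets were set from UMIs. No paired analysis was possible because each group holds 1 library, and for the same reason no replicate could be left out. NK-like values rest on 130 cells.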

Other observations

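Other receptors of the family were found outside lymphocytes. Klra4, a Ly49 gene, had 163.5 CPM (10178 counts) in Ptprc-low cells in the Lmo7+/+ and 202 CPM (8981 counts) in the Lmo7-/- library, beside 329 and 386 CPM in NK-like cells, 6.79 and 6.68 CPM in CD8 T-like cells and 3.55 and 4.04 CPM in macrophage-like cells. It was among the leading genes of the largest Ptprc-low cluster, of 6260 cells. Klrb1b, an inhibitory relative of Klrb1c, had 198 and 350 CPM in macrophage-like cells, from 3465 and 6419 counts.

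Ligands of the receptors were read in Ptprc-low and macrophage-like cells. H2-T23, which codes for Qa-1, had 58.9 and 76.0 CPM in Ptprc-low cells and 332 and 518 CPM in macrophage-like cells. Raet1e and Ulbp1, ligands of NKG2D, had 18.2 and 21.6 CPM and 36.4 and 29.6 CPM in Ptprc-low cells. Cdh1, a cadherin read by Klrg1, had 0.675 and 0.406 CPM in Ptprc-low cells, 13.6 and 13.9 CPM in macrophage-like cells and 122 and 60.1 CPM in NK-like cells. Cdh2, another cadherin on the list of ligands, is not given here.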
